A study of Mus musculus with 36 samples.

Results

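The loci described here are those of 7 mouse genes at which glucose use is known to be set: Hif1a, Slc2a1, Hk2, Pfkfb3, Pkm, Ldha and Slc16a3. Every accessible region (peak) that overlapped the body of one of these genes, or the 10 kb to either side, was taken as a member. This gave 94 of 119751 peaks: 15 at Hif1a, 13 at Slc2a1, 18 at Hk2, 27 at Pfkfb3, 8 at Pkm, 7 at Ldha and 6 at Slc16a3. All 94 passed the filter on low counts. By position, 8 members covered a RefSeq start site, 56 others lay in a gene body, 15 lay upstream and 15 downstream.

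The assay was ATAC-seq. A transposase cuts open chromatin there and inserts the sequencing adapters. The cells were bone marrow-derived dendritic cells from female C57BL/6J mice aged 6 to 8 weeks, grown in GM-CSF at 15 ng/mL. Nuclei of 50000 cells entered each library. The 36 libraries form 18 groups of 2, each after 6 h with ligands of pattern recognition receptors or with none (control). The single ligands, as labelled, are PAM (P), LPS (L), HMW (H), depleted zymosan (Z), 3',3'-cGAMP (cG) and SeV, that is Sendai virus (S). The 8 pairs are PL, PH, LH, PS, PcG, ScG, ZS and ZcG, and the 3 triplets are PLH, PScG and ZScG. The mice carried no engineered allele that the labels mention. The labels do not say whether the 2 libraries of a group came from separate mice or cultures, so p-values measure the spread between these libraries, which may be technical.

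Dendritic cells stimulated through pattern recognition receptors are known to raise glucose uptake and lactate release. Slc2a1 encodes the glucose transporter GLUT1, and Hk2 encodes hexokinase 2, which traps glucose in the cell by phosphorylating it. Pfkfb3 makes fructose 2,6-bisphosphate, an activator of phosphofructokinase. Pkm encodes pyruvate kinase, Ldha the lactate dehydrogenase subunit that favours lactate, and Slc16a3 the lactate exporter MCT4. Hif1a encodes the oxygen-regulated subunit of the transcription factor HIF-1, for which the other 6 genes are known targets. Accessibility is not transcription, and no RNA level was analysed here.

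Counts per library ran from 19097027 to 39977088, and 8181254 to 21985891 of them lay outside the mitochondrial genome, with 5035 to 18447 in the member peaks. Mitochondrial DNA took 44.1% to 63.1% of the counts of a library. Its mean share was 58.3% to 63.0% in control, Z, ZcG, ScG and ZScG, and 44.4% to 54.5% in the other 13 groups. Differences between these 5 groups and the 13 others, which include most stimulations against control, therefore move with that share, and its part in the results was not tested. Single libraries overlapped, since ZS replicate 1, of the 13 groups, held 58.1%, above ScG replicate 1 (57.3%) and ZScG replicate 1 (57.9%). ZS replicate 2 held 51.0%. All 13 dendritic and myeloid marker genes had a peak, with medians over the libraries of 4.45 to 75.9 CPM (counts scaled to the library's total outside the mitochondrial genome) in the strongest peak of each gene. All 4 macrophage genes did too (16.1 to 52.7 CPM), whereas Ly6g and Elane of 4 neutrophil genes and Cd8a of 4 T cell genes had no peak. The strongest peaks of the neutrophil gene S100a8, the B cell gene Cd79a and the T cell gene Cd3d had medians of 12.1, 7.43 and 8.89 CPM, and their part in the results was not tested. In bulk libraries a site open in fewer cells and a site less open in every cell cannot be told apart.

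The RefSeq promoters of the 7 genes (GRCm38.p6, 250 bases before to 50 after the start site) are 10 in number, since Pfkfb3, Ldha and Pkm each have a pair of start sites. The core of the HIF response element, ACGTG or GCGTG on either strand, was found in 9 of the 10, against 43.8% of 32851 promoters of this length. The members' promoters were also rich in G and C (56.7% to 73.3%, against a median of 52.7% over all promoters), and how far this accounts for the matches was not tested. The 4 promoters below are shown because their start-site peaks span what was seen at the loci. The upstream start site of Pfkfb3 lies in the start-site peak called in the most stimulations, that of Pkm in the next, that of Hk2 in a peak called in none, and that of Ldha holds the most matches. Capitals mark the HIF core, each sequence is given 5′ to 3′ on the gene's strand, and overlapping matches run together.

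Pfkfb3, chr2:11553880-11554179, minus strand: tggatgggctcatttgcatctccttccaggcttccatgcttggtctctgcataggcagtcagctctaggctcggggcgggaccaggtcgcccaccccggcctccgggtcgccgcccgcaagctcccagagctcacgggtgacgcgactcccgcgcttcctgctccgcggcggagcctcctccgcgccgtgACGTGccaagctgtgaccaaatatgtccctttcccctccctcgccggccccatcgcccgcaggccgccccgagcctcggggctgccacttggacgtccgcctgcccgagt

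Pkm, chr9:59656326-59656625, plus strand: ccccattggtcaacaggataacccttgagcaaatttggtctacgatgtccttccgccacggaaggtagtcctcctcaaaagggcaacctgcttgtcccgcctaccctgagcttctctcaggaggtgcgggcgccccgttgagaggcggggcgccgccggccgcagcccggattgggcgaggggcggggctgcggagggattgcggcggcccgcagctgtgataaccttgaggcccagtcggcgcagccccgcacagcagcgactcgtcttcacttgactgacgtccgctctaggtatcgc

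Hk2, chr6:82774405-82774704, minus strand: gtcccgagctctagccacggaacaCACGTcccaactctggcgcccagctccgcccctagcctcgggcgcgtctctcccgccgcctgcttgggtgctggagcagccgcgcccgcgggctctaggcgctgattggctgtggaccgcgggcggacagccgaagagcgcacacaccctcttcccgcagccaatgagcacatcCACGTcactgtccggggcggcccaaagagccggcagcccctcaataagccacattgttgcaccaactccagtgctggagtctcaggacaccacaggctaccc

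Ldha, chr7:46845554-46845853, plus strand: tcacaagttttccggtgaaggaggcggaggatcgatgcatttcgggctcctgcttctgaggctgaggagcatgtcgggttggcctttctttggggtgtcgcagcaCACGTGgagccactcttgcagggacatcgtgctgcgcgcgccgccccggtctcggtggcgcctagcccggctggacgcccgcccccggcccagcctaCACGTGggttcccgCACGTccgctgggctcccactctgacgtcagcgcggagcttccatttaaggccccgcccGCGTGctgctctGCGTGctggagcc

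Counted on both strands, with overlaps counted separately so that CACGTG gives 2, the Ldha promoter held 7 matches, Hk2 held 2, Pfkfb3 held 1 and Pkm none at this start site. The AP-1 element TGANTCA, the kappaB element and the interferon-stimulated response element (ISRE), also searched on both strands, were in none of the 10 member promoters. Over all promoters they occurred in 7.81%, 4.51% and 3.44%. The letters TATAAA were found in 1 of the 10, that of Slc2a1, 28 bases after the start site, against 13.6% of all promoters at any position. A match is a run of letters, not a bound site, and peaks away from start sites were not searched.

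Each peak was tested in one fit over all libraries with edgeR's quasi-likelihood test, with p-values adjusted by the Benjamini-Hochberg method over all 119464 tested peaks. A peak is called here where the adjusted p is under 0.05, fold changes are log2 with their standard error, and levels are CPM per peak, not corrected for its length. Over the 18 groups, 61 of the 94 members were called to differ, against 62.5% of all tested peaks. Within the 13 groups of low mitochondrial share 48 were called (47.0% of all peaks), and within the 5 of high share 39 (38.2%). The members thus varied between groups about as often as peaks in general.

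Against control, each stimulation called between 9 and 37 members, shares that lay above the background in some stimulations and below it in others. In brackets is the share of all tested peaks with the same call. P called 17 members (20.5% of all peaks), 13 of them higher (11.1%) and 4 lower (9.45%). L called 19 members (22.3% of all peaks), 13 of them higher (11.2%) and 6 lower (11.1%). H called 15 members (10.7% of all peaks), 8 of them higher (5.21%) and 7 lower (5.46%). S called 25 members (27.9% of all peaks), 18 of them higher (14.1%) and 7 lower (13.8%). cG called 18 members (23.3% of all peaks), 17 of them higher (11.6%) and 1 lower (11.6%). Z called 9 members (5.91% of all peaks), 8 of them higher (4.16%) and 1 lower (1.75%). Among single ligands the members' share was above the background for H and Z and below it for P, L, S and cG. PL called 29 members (27.3% of all peaks), 20 of them higher (13.8%) and 9 lower (13.5%). PH called 32 members (26.3% of all peaks), 19 of them higher (13.6%) and 13 lower (12.8%). LH called 25 members (21.8% of all peaks), 19 of them higher (11.3%) and 6 lower (10.5%). PS called 27 members (33.4% of all peaks), 21 of them higher (17.3%) and 6 lower (16.2%). PcG called 31 members (32.9% of all peaks), 24 of them higher (16.8%) and 7 lower (16.2%). ScG called 21 members (27.7% of all peaks), 14 of them higher (14.4%) and 7 lower (13.3%). ZS called 25 members (28.3% of all peaks), 17 of them higher (14.4%) and 8 lower (14%). ZcG called 16 members (21.6% of all peaks), 12 of them higher (11.4%) and 4 lower (10.2%). Among pairs it was above for PL, PH and LH, within 0.1 percentage points for PcG and below for PS, ScG, ZS and ZcG. PLH called 32 members (29.7% of all peaks), 24 of them higher (14.9%) and 8 lower (14.7%). PScG called 37 members (37.1% of all peaks), 26 of them higher (19.0%) and 11 lower (18.1%). ZScG called 28 members (32.3% of all peaks), 19 of them higher (16.2%) and 9 lower (16.1%). Among triplets it was above for PLH and PScG and below for ZScG.

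**Figure D1:**
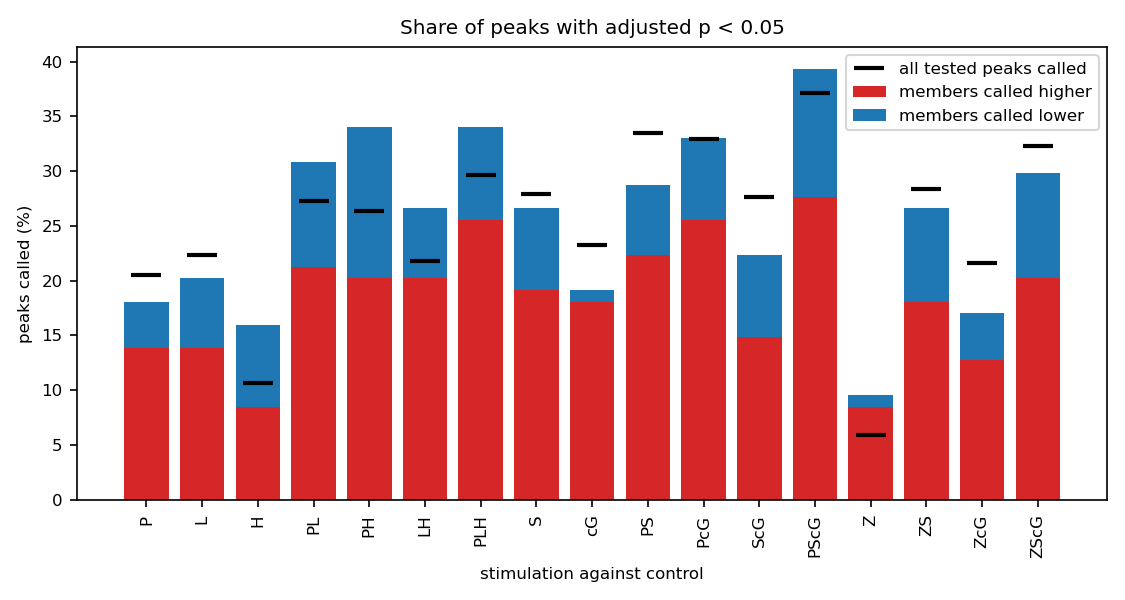
Share of peaks called against control in each stimulation (y axis, %), with member peaks called higher in red and lower in blue, stacked, and the share of all tested peaks called as black bars. Members called higher outnumber those called lower in each of the 17 stimulations, and the total share is below the black bar for P, L, S, cG, PS, ScG, ZS, ZcG and ZScG.

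Calls at these loci were mostly higher ones. Over the 94 peaks and 17 stimulations, 292 values were called higher and 114 lower, so that 71.9% of called values were higher, against 51.4% over all tested peaks. With libraries scaled by total counts these shares were 90.9% and 76.3%. At least 1 stimulation raised 40 of the peaks and lowered 26, with 3 in both counts and 31 called in none. The matching shares of all tested peaks are not given, so these counts of peaks describe no trait of the members. Hk2 had 111 values called higher and 20 lower, Pfkfb3 85 and 40, Hif1a 48 and 5, Pkm 13 and 12, Slc2a1 11 and 6, Slc16a3 8 and 3, and Ldha 16 and 28. The 17 comparisons share the same 2 control libraries, so their calls are not independent of each other.

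**Figure D2:**
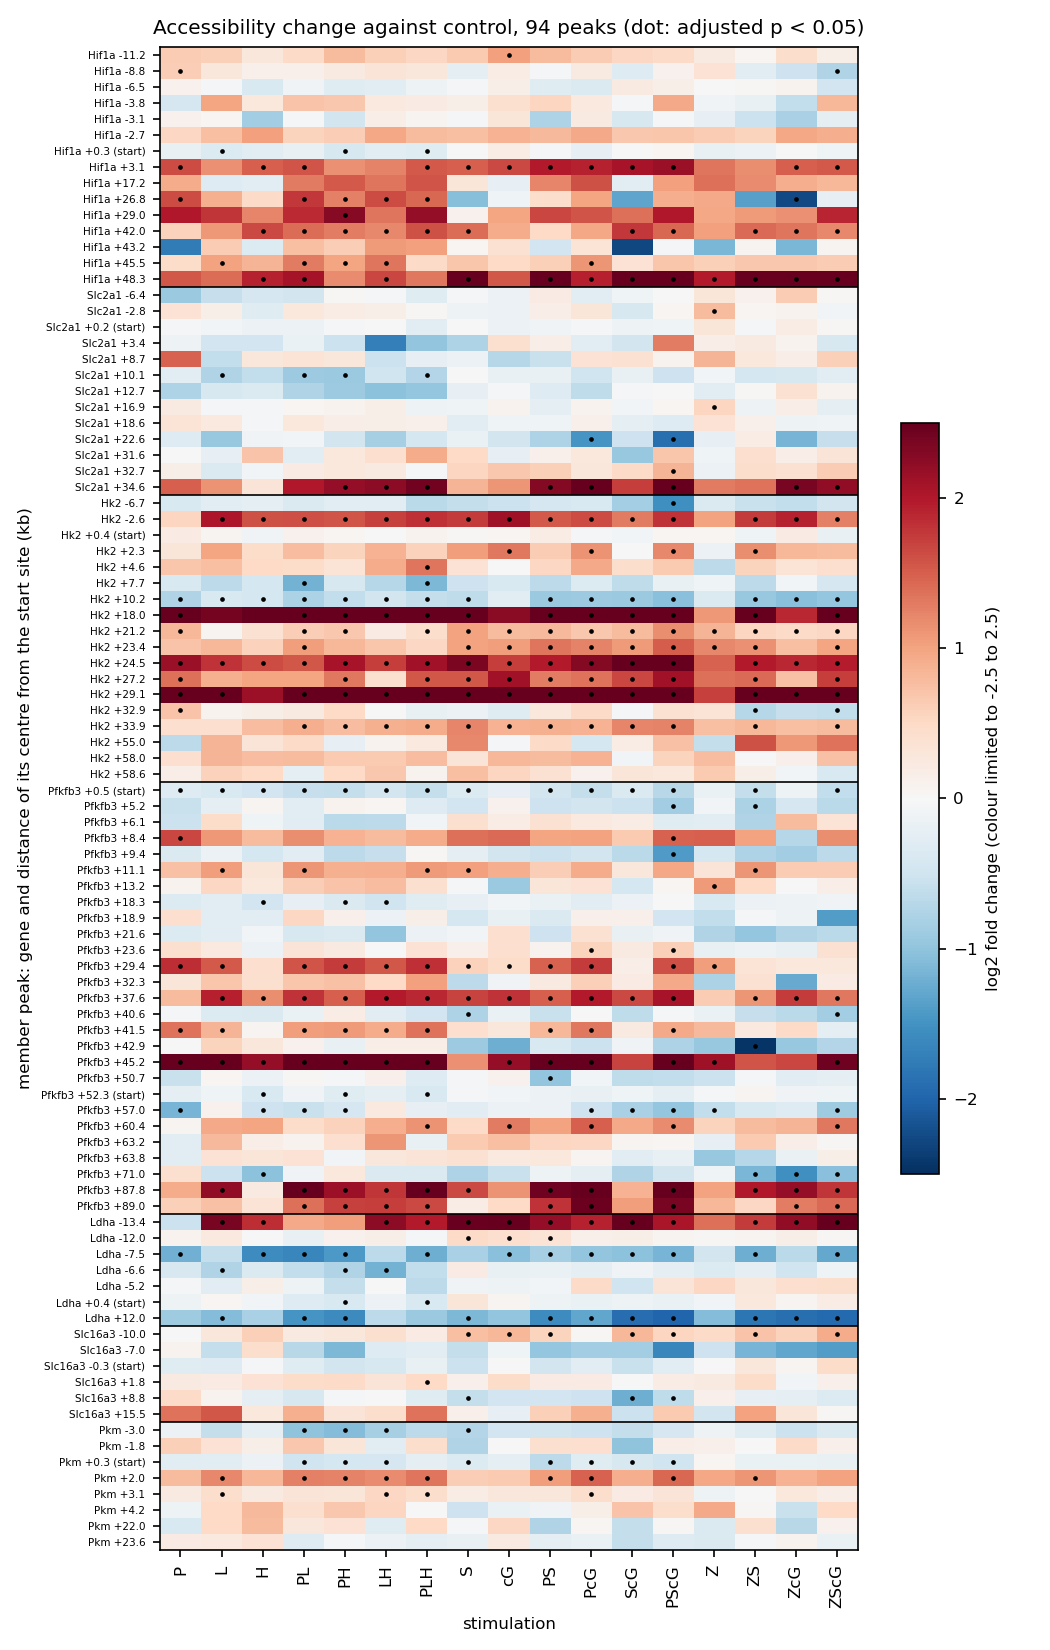
Fitted log2 fold change against control (colour, limited to -2.5 to 2.5) for the 94 member peaks (rows, by gene and distance of the peak centre from the most upstream start site in kb) in 17 stimulations (columns), with a dot where the adjusted p is under 0.05. Most dots on red lie in rows of Hk2, Pfkfb3 and Hif1a away from the start site, while the rows of start-site peaks are pale or blue.

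Under TMM scaling none of the gains called was at a start-site peak, of which there were 8. Of their values against control, 136 in all, edgeR called none higher and 30 lower (22.1%), with 14 of the 30 at the upstream start site of Pfkfb3 and 8 at that of Pkm. At an unadjusted p under 0.05 the counts were 6 higher and 46 lower, and DESeq2's Wald test called 0 higher and 26 lower. Over all peaks the shares of values called were 13% higher and 12.3% lower. Over the 10677 tested peaks that hold a RefSeq start site of any gene they were 7.47% higher and 22.8% lower, so the members' share called lower was near that of start-site peaks in general. The other 86 peaks had 292 values called higher and 84 lower. Start-site peaks were called higher 11 times and lower 14 times with offsets that depend on abundance, and higher 25 times and lower 4 times when scaled by total counts, so their direction depends on the scaling. Start-site peaks of all genes moved likewise, to 10.3% higher and 16.5% lower with those offsets and 21.9% and 6.59% with total counts. Changes there were small under the main scaling, at most 0.69 on the log2 scale.

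**Figure D3:**
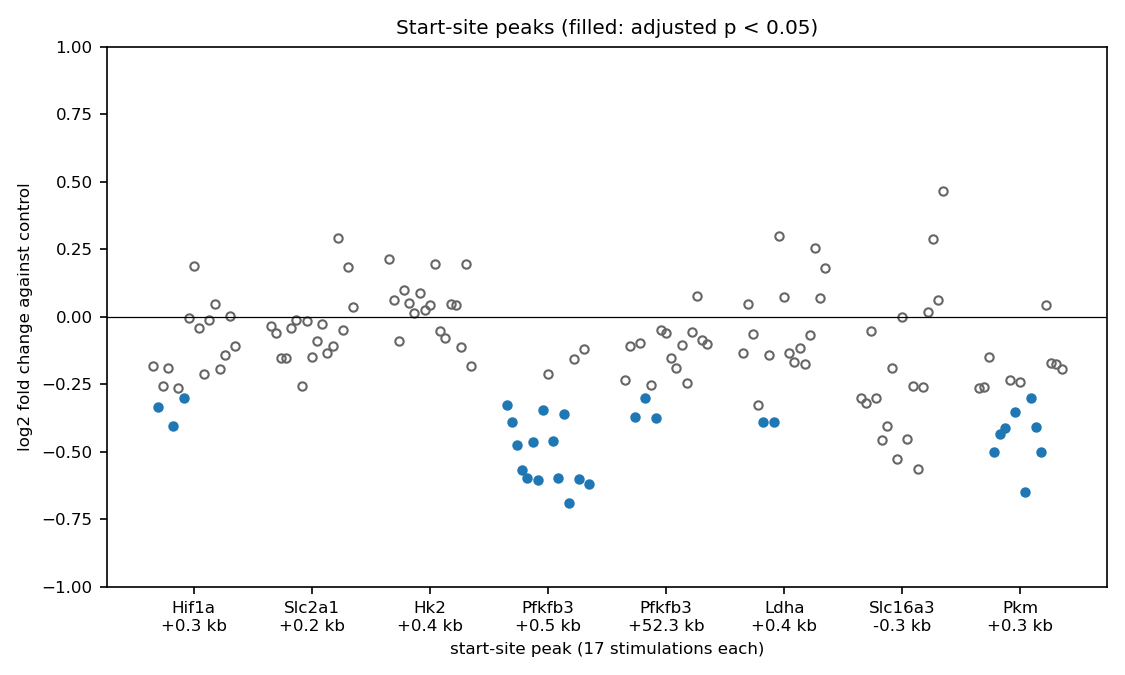
Log2 fold change against control (y axis) of the 8 start-site peaks (x axis), with 1 point for each of the 17 stimulations, filled where the adjusted p is under 0.05. All 30 filled points lie below 0 under TMM scaling, 14 of them at the upstream start site of Pfkfb3, and under scaling by total counts 25 values are called higher.

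At Hif1a, gains lay inside and beyond the gene while the start-site peak was flat or lower. The start-site peak (chr12:73907308-73908967) held 51.8 and 54.2 CPM in the control libraries, and was lower in L (39.6 and 44.3), PH (39.4 and 40.8) and PLH (44.2 and 41.8). Its fold changes there were -0.34 ± 0.11, -0.40 ± 0.11 and -0.30 ± 0.11, with edgeR adjusted p = 0.011, 0.0015 and 0.020. Libraries of these 3 groups lay below both control libraries, whereas the highest group was cG, at 62.6 and 58.3 CPM (adjusted p = 0.19). Without control replicate 2 the change was -0.30 in L and -0.27 in PLH, neither of them called. Nor were they without L replicate 1 (-0.26) and PLH replicate 2 (-0.26), and none of the 3 was called with offsets that depend on abundance.

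A peak 26.8 kb into Hif1a (chr12:73934453-73934877) was highest in P and in combinations of P, L and H. It held 1.64 and 0.675 CPM in control, 2.75 and 4.33 in P, 3.66 and 4.18 in PL, 3.34 and 3.81 in LH, 1.97 and 3.48 in PH and 3.33 and 2.88 in PLH. The libraries of S (0.589 and 0.492), ScG (0.651 and 0.219), ZS (0 and 0.829) and ZcG (0.241 and 0.223) lay below every library of those 5 stimulated groups. P, PL, PH, LH and PLH were called higher than control, from 1.27 ± 0.47 in PH (edgeR adjusted p = 0.033) to 1.77 ± 0.47 in PL (0.0017), and L alone was not (0.88 ± 0.48, 0.19). ZcG was called lower, by -2.25 ± 0.77 (0.023). These calls rest on few counts, 15 and 7 in the control libraries. Without control replicate 2 none of the 5 was called (0.74 in PH to 1.25 in PL), and without control replicate 1 neither was ZcG (-1.51). Calls were also lost without P replicate 2 (1.26), PH replicate 2 (0.79), PLH replicate 1 (1.33) and either ZcG library (-2.31 and -2.19). In comparisons that do not use control, the peak fell from P to PS by -1.19 ± 0.41 (0.028), from Z to ZS by -2.30 ± 0.60 (0.0031) and from Z to ZcG by -3.20 ± 0.70 (0.00058). It rose from ScG to PScG by 2.22 ± 0.58 (0.0081). The last 3 also rest on few counts, 0 and 9 in ZS, 2 and 2 in ZcG and 7 and 2 in ScG, so the size of these changes is uncertain.

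A peak downstream of Hif1a, 48.3 kb from the start site (chr12:73955996-73956354), was higher in most stimulations than in control. It held 0.437 and 0.386 CPM in control (4 counts in each library) and was called higher in 12 stimulations. The highest levels were in ScG (2.98 and 5.35 CPM), ZScG (3.24 and 3.31) and PScG (2.51 and 3.91), followed by ZcG (1.57 and 4.34), ZS (1.51 and 4.33) and S (1.83 and 3.69). P (1.22 and 1.23), L (1.41 and 0.809), cG (1.67 and 0.788), PH (0.921 and 0.955) and PLH (0.913 and 1.18) lay above both control libraries and were not called. The largest fitted change was 3.30 ± 0.57 in ScG (edgeR adjusted p = 6.8e-07). Of the 12 calls, 5 (PS, PScG, S, ScG and ZScG) were kept with each library left out in turn. The other 7 were lost without a library of their own: H replicate 2 (1.38), LH replicate 2 (1.42), PL replicate 2 (1.78), PcG replicate 1 (1.75), Z replicate 1 (1.47), ZS replicate 2 (1.85) and ZcG replicate 2 (1.91). Those in H, LH, PL, PcG and Z were lost without control replicate 2 as well (1.59 to 1.98). ScG also exceeded cG, by 1.76 ± 0.45 (0.0078). The other 12 Hif1a peaks had 31 values called higher and 1 lower.

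Slc2a1, the glucose transporter gene, changed at few peaks, and zymosan was the ligand that stood out. The start-site peak (chr4:119108305-119109575) held 41.3 and 37.2 CPM in control, group means from 32.8 in PLH to 48.0 in Z, and was called in no stimulation by edgeR or by DESeq2's Wald test. At an unadjusted p under 0.05 it was higher in 1 and lower in 1. It was called to differ over all 18 groups (edgeR adjusted p = 0.0048) and within the 5 of high mitochondrial share (0.014), but not within the 13 of low share (0.70). Z held 46.1 and 49.9 CPM, above both control libraries, at 0.29 ± 0.12 (0.13), and ZS (38.5 and 37.4 CPM) was called below Z by -0.34 ± 0.12 (0.032).

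A peak 16.9 kb into Slc2a1 (chr4:119124761-119126446) held 34.7 and 35.1 CPM in control and 52.1 and 49.4 in Z, the highest libraries of all 36. It was called higher in Z at 0.54 ± 0.12 (edgeR adjusted p = 0.00062), kept with each library left out in turn, and in no other stimulation. The gain in Z was smaller or absent with a second ligand. ZS (34.0 and 30.5 CPM) fell below Z by -0.66 ± 0.12 (6.4e-06) and ZcG (40.1 and 38.6 CPM) by -0.37 ± 0.12 (0.028). ZcG still lay above both control libraries, at 0.17 ± 0.12 (0.32), without being called. A peak 2.8 kb upstream (chr4:119105545-119106274) behaved alike, with 13.5 and 9.07 CPM in control and 20.6 and 18.3 in Z. The change in Z was 0.79 ± 0.19 (0.0022), and it was not called without control replicate 2 (0.52) or without Z replicate 1 (0.70). ZS lay -0.73 ± 0.18 (0.0021) and ZcG -0.70 ± 0.19 (0.0066) below Z there. The mean mitochondrial share was 61.0% in control, 61.7% in Z, 54.5% in ZS and 63.0% in ZcG, and its part in these differences was not tested. The other 10 Slc2a1 peaks had 9 values called higher, 8 of them at 1 downstream peak of at most 1.78 CPM in any library, and 6 lower.

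Hk2 had the most gains, most of them in a block of peaks 18 to 33.9 kb into the gene, beside a start-site peak that was called in no stimulation. Within that block the peak at 32.9 kb, named after its values were seen, was called higher in 1 stimulation and lower in 2. The start-site peak (chr6:82772868-82775167) held 59.3 and 63.9 CPM in control, 70.4 and 72.5 in P, 71.5 and 69.7 in PS and 69.6 and 71.7 in ZcG. Those 3 groups lay above both control libraries by 0.20 to 0.21 without being called, at edgeR adjusted p = 0.11, 0.11 and 0.15. DESeq2's Wald test called none either, and 3 stimulations had an unadjusted p under 0.05. With offsets that depend on abundance 8 stimulations were called higher.

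The peak 21.2 kb into Hk2 (chr6:82752552-82754001) held 15.1 and 19.3 CPM in control and 37.4 and 39.8 in PScG, the highest group. S followed at 38.3 and 30.6, Z at 31.0 and 31.2, P at 29.2 and 32.2 and PS at 30.3 and 30.1. L (18.2 and 17.9) lay within the control libraries and LH (20.5 and 19.0) reached into them, while H held 24.1 and 20.8. The peak was called higher in 14 stimulations, from 0.44 ± 0.14 in PLH (edgeR adjusted p = 0.0077) to 1.16 ± 0.13 in PScG (5.4e-14), and in neither L (0.07 ± 0.14, 0.78) nor LH (0.20 ± 0.14, 0.33) nor H (0.38 ± 0.14, 0.052). The call in H was made under 5 other settings of scaling or block (0.39 to 0.66) and without control replicate 2 (0.58). Without control replicate 1, PLH (0.28), ZS (0.38), ZScG (0.37) and ZcG (0.32) were not called, and without ZcG replicate 2 ZcG was not (0.33). Neighbouring groups from ZcG to PL in the order of levels, 24.1 to 26.4 CPM, overlapped in their libraries.

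The peak 10.2 kb into Hk2 (chr6:82763780-82764688) lost accessibility instead. It held 29.8 and 26.2 CPM in control, above every stimulated library, and least in PScG (14.2 and 12.9), ZcG (12.1 and 15.1), ZS (16.1 and 12.9) and ZScG (11.8 and 17.2). It was called lower in 15 stimulations, most strongly in PScG at -1.05 ± 0.15 (edgeR adjusted p = 2.1e-09), and not in cG (-0.29 ± 0.14, 0.13) or Z (-0.37 ± 0.15, 0.14). Of the 15 calls, 12 were kept with each library left out in turn. Those in H (-0.35), L (-0.28) and LH (-0.36) were lost without control replicate 1, and also without a library of their own, H replicate 1 (-0.44), L replicate 2 (-0.37) and LH replicate 1 (-0.33). That in L was lost with DESeq2's Wald test too. Pairs lay below a single ligand in 4 comparisons named here, as PcG lay below cG by -0.62 ± 0.15 (0.0014), ScG below cG by -0.63 ± 0.15 (0.0043), ZS below Z by -0.59 ± 0.16 (0.0056) and ZcG below cG by -0.74 ± 0.16 (0.0014).

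Several further Hk2 peaks, chosen here after their values were seen, were near the floor in control. The peak at 18 kb held 0.219 and 0 CPM in control (2 and 0 counts) and 3.32 and 4.27 in PScG, where ScG (1.77 and 1.64) and ZScG (1.45 and 2.21) came next. The peak at 29.1 kb held 0.328 and 0 CPM in control (3 and 0 counts) and 3.93 and 3.89 in PcG. Both rise from too few control counts for a fold to be given. The peak at 24.5 kb (0.656 and 0.386 CPM in control) was called higher in 16 of 17 stimulations, by up to 2.97 ± 0.51 in ScG (edgeR adjusted p = 6.6e-07). A peak 2.6 kb upstream held 1.31 and 1.83 CPM in control, 7.21 and 5.82 in L, 6.84 and 7.02 in cG and 2.44 and 2.17 in P. It was called higher in 15 stimulations and not in P (0.54 ± 0.38, 0.35) or Z (1.00 ± 0.38, 0.11), so L raised this upstream peak and not the one at 21.2 kb.

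**Figure D4:**
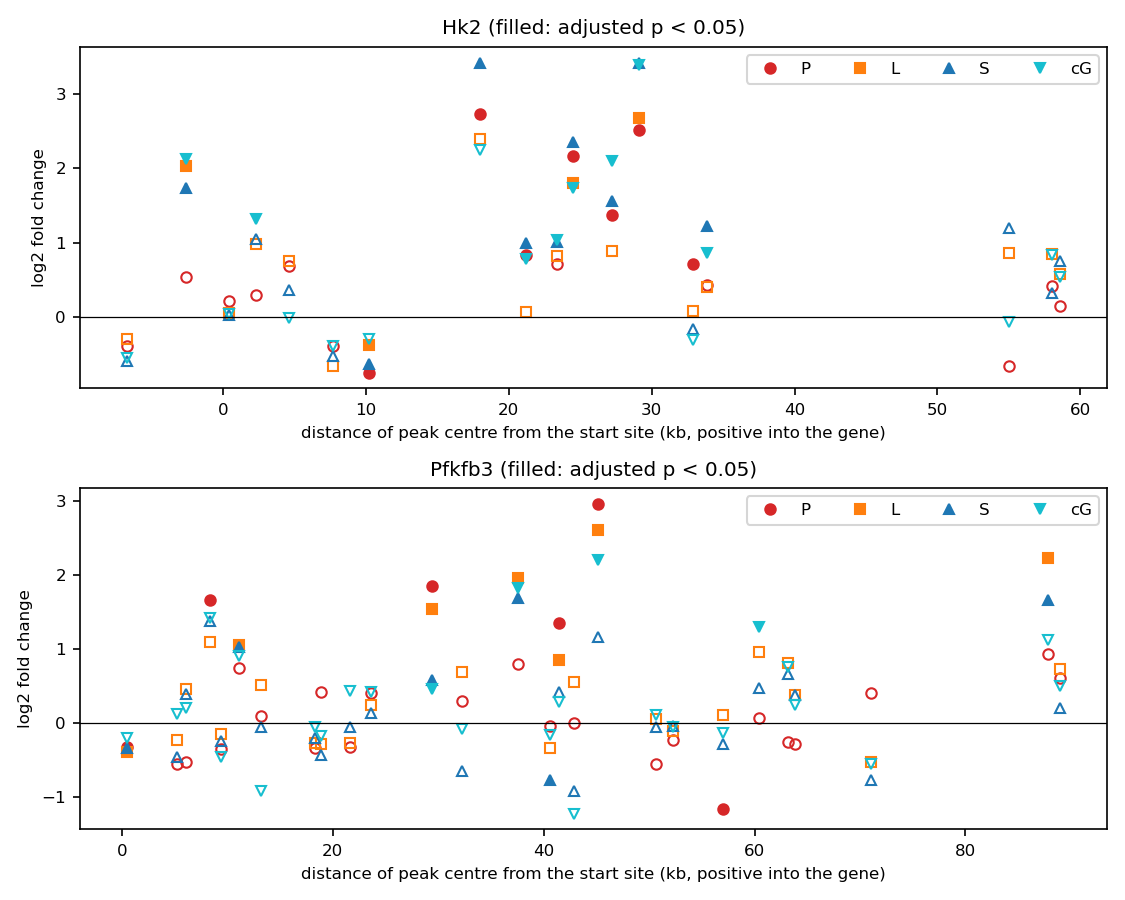
Log2 fold change against control (y axis) of each Hk2 and Pfkfb3 peak by the distance of its centre from the most upstream start site (x axis, kb, positive into the gene) for P, L, S and cG, filled where the adjusted p is under 0.05. At Hk2 the filled points above 0 lie at -2.6 kb, at 2.3 kb and from 18 to 33.9 kb, and at Pfkfb3 the peaks at 29.4 and 57.0 kb separate P from S and cG.

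Pfkfb3 carried the member peak with the clearest differences between groups, 29.4 kb into the gene (chr2:11523699-11525367, edgeR adjusted p = 2.2e-53 over the 18 groups and 4.6e-37 within the 13 of low mitochondrial share). It held 8.74 and 9.65 CPM in control, 31.4 and 34.9 in P, 28.5 and 25.2 in L, 18.2 and 19.9 in Z, 14.4 and 13.2 in S, 12.6 and 12.8 in cG and 11.3 and 13.6 in H. All 9 groups that hold P or L had both libraries between 23.1 and 35.2 CPM, above every library without P or L. The combinations of S, cG and Z with each other stayed between 8.27 and 13.4 CPM. Control, H, S and cG overlapped with these combinations or lay just above them, and Z alone lay between the low and the high groups.

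Against control the change at 29.4 kb was 1.85 ± 0.16 in P (edgeR adjusted p = 5.7e-22), 1.54 ± 0.16 in L (3.1e-16) and 1.05 ± 0.17 in Z (9.6e-07). It was 0.58 ± 0.17 in S (0.0037) and 0.46 ± 0.17 in cG (0.036). H (0.43 ± 0.17, 0.090), ScG (0.17 ± 0.18, 0.52), ZS (0.34 ± 0.18, 0.15), ZcG (0.27 ± 0.18, 0.31) and ZScG (0.26 ± 0.18, 0.29) were not called. The call in S was lost without control replicate 1 (0.52) and that in cG without any of its 4 libraries (0.39 to 0.53), while the other 10 were kept. Zymosan's gain was smaller in its pairs, which lay below Z by -0.72 ± 0.16 in ZS (0.00057) and -0.79 ± 0.17 in ZcG (0.00038). Adding P raised the peak beside H, cG, S or ScG, but no rise was called beside L or LH. PL held 28.0 and 27.1 CPM against 28.5 and 25.2 in L. PLH held 35.2 and 29.8 CPM against 27.8 and 26.3 in LH. PH exceeded H by 1.32 ± 0.14 (3.0e-14), PcG exceeded cG by 1.29 ± 0.14 (9.2e-14), PS exceeded S by 0.89 ± 0.14 (4.0e-07) and PScG exceeded ScG by 1.44 ± 0.15 (2.2e-13). PS lay below P by -0.37 ± 0.13 (0.033), and LH exceeded H by 1.13 ± 0.14 (3.1e-10).

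The peak 57.0 kb into Pfkfb3 (chr2:11496445-11497395) was low in P and not in L. It held 27.2 and 24.4 CPM in control, 25.2 and 30.0 in L, 30.4 and 30.6 in LH, and 10.1 and 12.9 in P, the lowest group. S (18.7 and 23.7), cG (20.9 and 25.7) and PS (24.9 and 22.0) were near control, and PScG (13.8 and 12.5), ZScG (15.9 and 11.6) and ScG (14.1 and 15.2) near P. It was called lower in 9 stimulations, by -1.16 ± 0.16 in P (edgeR adjusted p = 4.4e-10), -0.97 ± 0.16 in PScG (6.2e-08), -0.90 ± 0.16 in ZScG (3.0e-06) and -0.82 ± 0.16 in ScG (1.2e-05), and in neither L (0.10 ± 0.14, 0.66) nor LH (0.24 ± 0.14, 0.23). Those 4 calls were kept with each library left out in turn. The calls in H (-0.43), PH (-0.34), PL (-0.48), PcG (-0.44) and Z (-0.53) were lost without control replicate 1, and also without H replicate 2 (-0.47), PH replicate 2 (-0.26), PL replicate 2 (-0.25) and Z replicate 1 (-0.41). DESeq2's Wald test did not call PH.

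The 57.0 kb peak was higher in each pair with P than in P alone. It rose from P by 0.61 ± 0.16 in PL (edgeR adjusted p = 0.0058), 0.75 ± 0.15 in PH (0.00067), 1.02 ± 0.15 in PS (1.8e-08) and 0.64 ± 0.15 in PcG (0.0012). With both S and cG beside P it was low again, since PScG lay below PS by -0.83 ± 0.15 (0.00019). ScG lay below cG by -0.67 ± 0.16 (0.0023), and ZScG below ZcG by -0.57 ± 0.17 (0.039).

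The start-site peak at the upstream start of Pfkfb3 (chr2:11552573-11554316) held 40.8 and 38.4 CPM in control and group means from 24.5 in PScG to 36.5 in ZcG. It was called lower in 14 stimulations, by up to -0.69 ± 0.12 in PScG (edgeR adjusted p = 1.4e-06), and not in cG (-0.21 ± 0.12, 0.21), Z (-0.16 ± 0.12, 0.54) or ZcG (-0.12 ± 0.12, 0.55). Of the 14 calls, 8 were kept with each library left out in turn. Those in H (-0.43), L (-0.35), P (-0.28), S (-0.30) and ScG (-0.32) were lost without control replicate 1, and that in LH without LH replicate 1 (-0.37). Those in H, L, P, S and ScG were also lost without H replicate 2 (-0.37), L replicate 2 (-0.22), P replicate 1 (-0.29), S replicate 1 (-0.25) and ScG replicate 2 (-0.23). The peak at the second start site, 52.3 kb downstream of the first (chr2:11500555-11502619), held 38.6 and 34.9 CPM in control. It was lower in H (30.5 and 26.0), PH (30.9 and 28.8) and PLH (28.3 and 28.3), by at most -0.38 ± 0.12 (0.0091), and each of the 3 calls was lost without control replicate 1 (-0.30, -0.23 and -0.30) and without H replicate 2 (-0.27), PH replicate 2 (-0.25) or PLH replicate 2 (-0.38).

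The remaining 23 Pfkfb3 peaks had 73 values called higher and 14 lower. Of these, a peak at 37.6 kb, chosen after its values were seen, rose in 15 stimulations, from 1.97 and 1.93 CPM in control to 6.93 and 8.57 in LH and 7.90 and 8.40 in PScG. P (4.04 and 2.74 CPM, 0.79 ± 0.34, edgeR adjusted p = 0.082) and Z (2.89 and 3.15 CPM, 0.63 ± 0.37, 0.35) were the 2 stimulations not called there. P and Z were also the stimulations not called at the Hk2 peak at -2.6 kb. A peak beyond the gene's end, at 89.0 kb, was highest where P and cG were combined. It too was chosen after its values were seen, and the adjusted p-values below do not allow for that choice. This peak was called higher than control in 9 stimulations. edgeR called no pair interaction there and did not call PScG above PS. PcG held 8.67 and 5.87 CPM and PScG 6.64 and 7.26, against 1.22 and 2.82 in P, 1.35 and 2.36 in cG and 1.31 and 1.35 in control. PcG exceeded P there by 1.84 ± 0.34 (1.4e-05) and cG by 1.96 ± 0.35 (7.2e-06), and PS exceeded P by 1.20 ± 0.35 (0.0069) and S by 1.62 ± 0.35 (0.0011).

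**Figure D5:**
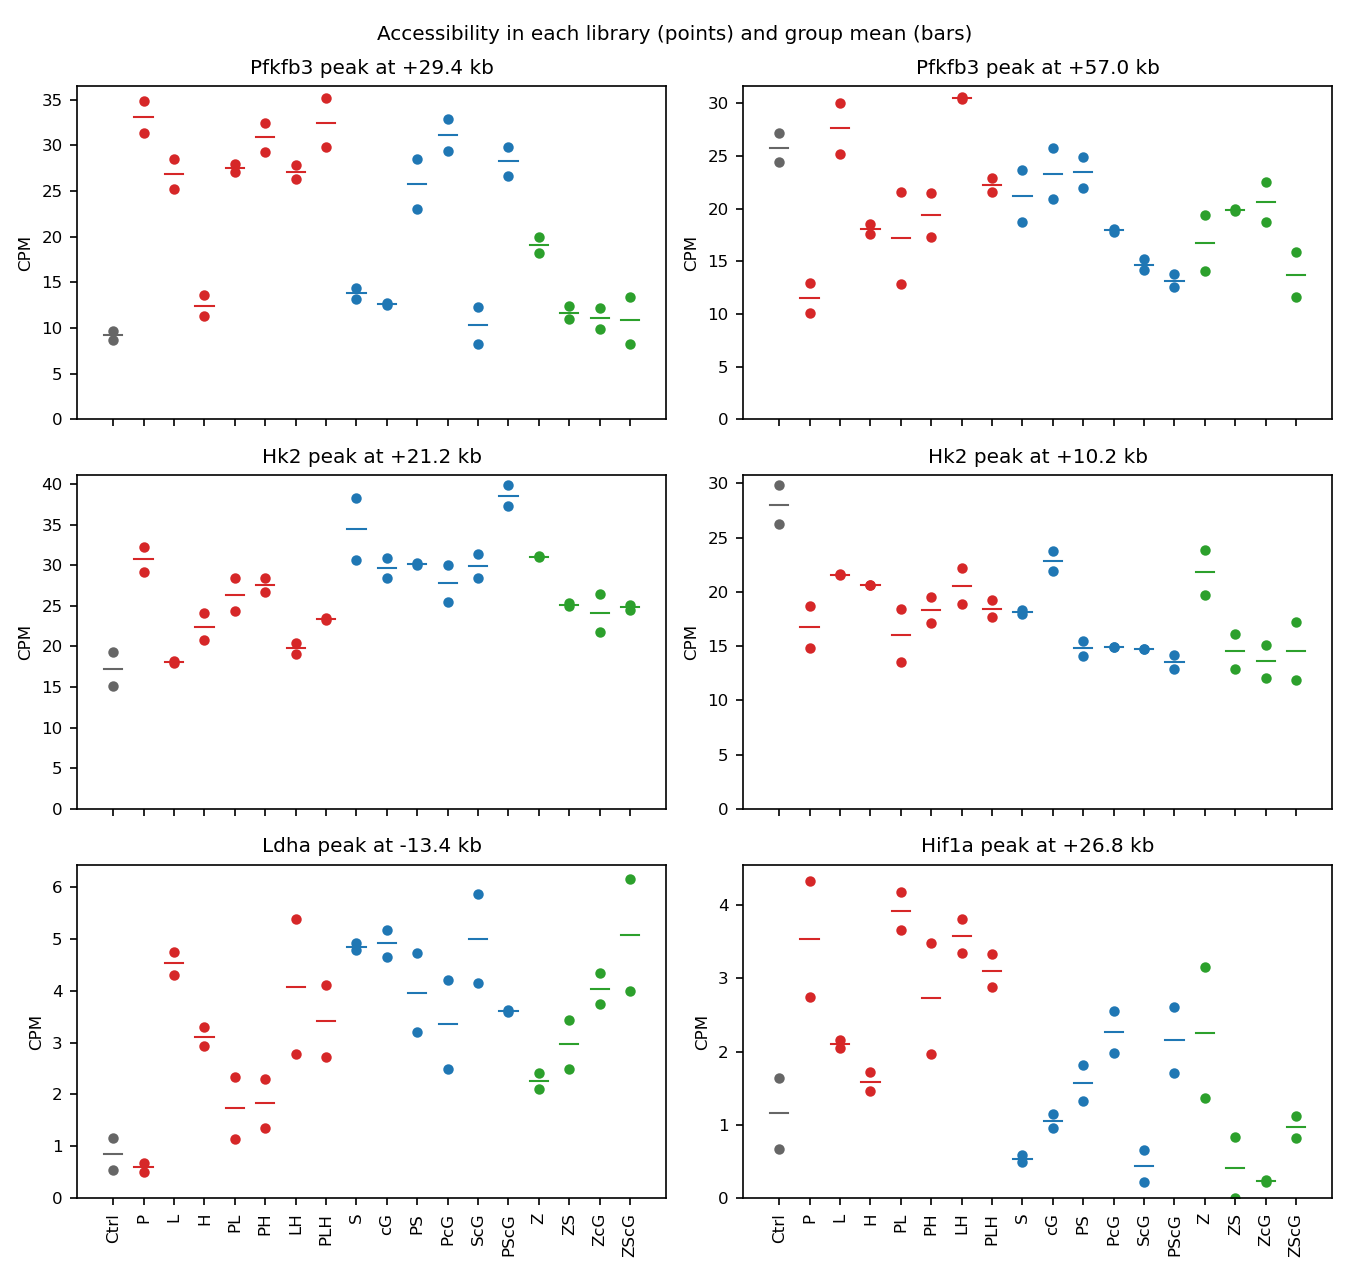
CPM (y axis, from 0) in each library (points) and the mean of each group (horizontal bars) for 6 member peaks, with control in grey, groups of P, L and H in red, other groups with S or cG in blue and groups with Z in green. P and L are high and the Z combinations low at Pfkfb3 29.4 kb, P is lowest at Pfkfb3 57.0 kb, and P stays at the control level at Ldha -13.4 kb where L, S and cG are above 4 CPM.

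Pkm changed little. Its start-site peak (chr9:59655798-59657914) held 53.1 and 59.2 CPM in control and was called lower in 8 stimulations, with the lowest libraries in PS (36.8 and 35.1). The change in PS was -0.65 ± 0.10 (edgeR adjusted p = 7.4e-08), and it was not called in P (-0.26 ± 0.10, 0.057), L (-0.26 ± 0.10, 0.054) or Z (0.04 ± 0.11, 0.88). PS also lay below P, by -0.38 ± 0.10 (0.0035). The calls in PH, PL, PS and PScG were kept with each library left out, and those in LH (-0.33), PcG (-0.22), S (-0.27) and ScG (-0.33) were lost without control replicate 2. Those in PcG and S were also lost without PcG replicate 1 (-0.28) and S replicate 1 (-0.31). The peak 3.1 kb into the gene (chr9:59659081-59660175) held 11.3 and 16.9 CPM in control and was called higher in L (20.7 and 17.8), LH (22.0 and 18.5), PcG (17.7 and 20.5) and PLH (19.4 and 19.3), by 0.43 to 0.52. All 4 calls were lost without control replicate 1 (0.18 to 0.27) and without L replicate 1 (0.33), LH replicate 1 (0.39), PcG replicate 2 (0.33) or PLH replicate 1 (0.44). The peak was called to differ over all 18 groups (edgeR adjusted p = 0.010), but not within the 13 of low mitochondrial share (0.15) or the 5 of high share (0.24). The other 6 Pkm peaks had 9 values called higher and 4 lower. All 9 were at a peak 2.0 kb into the gene, named after its values were seen, with 9 and 17 counts in the control libraries. Its fold changes ran from 0.61 to 1.48 over the 17 stimulations. It was not called to differ over all 18 groups (edgeR adjusted p = 0.099).

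At Ldha both the start-site peak and a distal upstream peak varied between groups. The start-site peak (chr7:46845001-46847316, over both start sites) held 24.9 and 22.2 CPM in control, 31.9 and 26.1 in S, and 19.1 and 16.8 in PH. Group means ran from 18 in PLH to 29.0 in S. The peak was called to differ over the 18 groups (edgeR adjusted p = 5.6e-07) and within the 13 of low mitochondrial share (4.5e-07), but not within the 5 of high share (0.37). Against control, PH and PLH were called lower, both at -0.39 ± 0.14 (edgeR adjusted p = 0.024 for each). Both calls were lost without control replicate 1 (-0.31 and -0.30), without PH replicate 2 (-0.30) or PLH replicate 1 (-0.39), with DESeq2's Wald test, and with offsets that depend on abundance. PS lay below S there by -0.43 ± 0.13 (0.030).

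The peak 13.4 kb upstream of Ldha (chr7:46832050-46832735) held 0.546 and 1.16 CPM in control (5 and 12 counts) and 0.687 and 0.506 in P. It held 4.31 and 4.74 CPM in L, 4.78 and 4.92 in S, 5.17 and 4.66 in cG, 3.30 and 2.93 in H and 2.10 and 2.41 in Z, and every library of these groups lay above those of control and P. The pairs PL (1.15 and 2.34) and PH (2.30 and 1.35) lay between P and their partners, and PS (3.20 and 4.72) and PcG (2.50 and 4.21) lay between as well, nearer to S and cG. It was called higher in 13 stimulations, by 2.37 ± 0.42 in L (edgeR adjusted p = 1.6e-06), 2.47 ± 0.42 in S (3.5e-07), 2.49 ± 0.42 in cG (5.1e-07) and 1.84 ± 0.44 in H (0.0016). It was not called in P (-0.54 ± 0.57, 0.56), PL (0.95 ± 0.49, 0.14), PH (1.05 ± 0.46, 0.080) or Z (1.38 ± 0.48, 0.069). The calls in H (1.43) and ZS (1.34) were lost without control replicate 1, and the other 11 were kept.

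Comparisons without control show the same order at that Ldha peak. PL exceeded P by 1.48 ± 0.49 (edgeR adjusted p = 0.037), PH by 1.59 ± 0.46 (0.034), PS by 2.74 ± 0.42 (4.1e-08) and PcG by 2.46 ± 0.43 (2.9e-06). PL lay below L, by -1.43 ± 0.36 (0.017). Of the other 5 Ldha peaks, 2 named after their values were seen lost accessibility. The peak at -7.5 kb fell in 12 stimulations, from 5.03 and 5.40 CPM in control to 1.87 and 1.43 in PL. The peak at 12.0 kb, beyond the gene's end, fell in 11, from 4.26 and 4.73 CPM in control to 1.45 and 0.827 in ZScG.

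At Slc16a3, the start-site peak (chr11:120948220-120949375) held 8.52 and 10.3 CPM in control and was called in no stimulation by edgeR or DESeq2's Wald test. At an unadjusted p under 0.05 it was higher in 1 and lower in 4. Zymosan did raise it against Sendai virus. ZS held 12.0 and 11.1 CPM against 7.52 and 5.60 in S, a difference of 0.82 ± 0.22 (edgeR adjusted p = 0.016), and ZScG held 13.7 and 12.3 against 6.23 and 6.56 in ScG, a difference of 1.03 ± 0.23 (0.0079). S and ScG lay below both control libraries at -0.53 ± 0.22 (0.060) and -0.56 ± 0.23 (0.058), and ZScG lay above them at 0.46 ± 0.22 (0.093), without being called. The mean mitochondrial share was 47.9% in S, 54.5% in ZS, 59.4% in ScG and 58.3% in ZScG, and its part in these differences was not tested.

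The peak 10.0 kb upstream of Slc16a3 (chr11:120938735-120939421) held 6.34 and 6.37 CPM in control, 10.1 and 11.4 in S, 10.7 and 12.0 in cG, 12.1 and 10.6 in ScG and 12.7 and 11.4 in ZScG. It was called higher in 7 stimulations by 0.54 ± 0.22 in PScG (edgeR adjusted p = 0.043) to 0.93 ± 0.23 in ZScG (0.00049). H (9.85 and 9.31 CPM) lay above both control libraries at 0.59 ± 0.22 and was not called (0.064), though its change exceeded that of PScG, as did that of ZcG (0.57 ± 0.23, 0.063). P (-0.01 ± 0.23, 0.99) and PcG (0.03 ± 0.22, 0.93) were at the control level, and PcG lay below cG by -0.80 ± 0.20 (0.0033). The calls in cG, ScG and ZScG were kept with each library left out. Those in PS (0.55), PScG (0.54) and ZS (0.70) were lost without control replicate 1, and also without control replicate 2 (0.56, 0.55 and 0.71). Calls were further lost without S replicate 2 (0.66), PS replicate 2 (0.39), PScG replicate 2 (0.50) and ZS replicate 2 (0.54). The peak at 8.8 kb (chr11:120957531-120958271), which also overlaps the casein kinase gene Csnk1d, held 8.41 and 7.43 CPM in control, 2.70 and 4.15 in ScG and 9.23 and 12.7 in P. It was called lower in 3 stimulations, most in ScG at -1.22 ± 0.27 (0.00016), and PL, PS and PcG lay below P by -0.88 ± 0.23 (0.0055), -0.95 ± 0.22 (0.00047) and -1.0 ± 0.22 (0.00040). The calls in S (-0.52) and PScG (-0.55) were lost without control replicate 1, without control replicate 2 (-0.69 and -0.73), and without S replicate 1 (-0.53) or PScG replicate 2 (-0.48).

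What a second ligand changed was tested by setting each pair against each of its single ligands. For pairs with P the count of members called was 7 against P and 3 against L for PL (8.46% and 1.13% of all peaks), and 4 against P and 7 against H for PH (2.66% and 7.55%). It was 17 against P and 4 against S for PS (18.1% and 2.93%), and 10 against each of P and cG for PcG (14.7% and 9.11%). In the other pairs it was 5 for LH against H (3.78%), 4 for ScG against cG (4.94%), 3 for ZS against S (2.53%) and 2 for ZcG against cG (2.87%). It was 10 for ZS against Z (15.2%), all of them lower (8.53% of all peaks lower), and 12 for ZcG against Z (9.07%), of which 10 were lower (4.95%). edgeR called no member for LH against L (0.0645%) or ScG against S (0.579%). At an unadjusted p under 0.05 these had 2 and 9 members, and DESeq2's Wald test called 0 in both.

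Departures from additivity were tested as the pair minus both singles plus control, on the log2 scale. Members called numbered 10 in ScG (14.4% of all peaks), 6 in ZcG (2.49%) and 4 in ZS (3.43%). With P they numbered 4 in PL (6.75%), 4 in PS (4.59%), 3 in PcG (3.27%) and 1 in PH (1.55%), and LH had 3 (4.88%). Of these 35 values, 31 were negative, meaning a pair below the sum of its singles, and 4 positive. Over all peaks and the 8 pairs, 3.1% of values were called negative and 2.07% positive. The 4 positive ones were all at the Pfkfb3 peak at 57.0 kb, in PH (1.26 ± 0.21, edgeR adjusted p = 2.1e-05), LH (0.65 ± 0.20, 0.039), PS (1.30 ± 0.21, 1.4e-06) and PcG (0.78 ± 0.21, 0.017). The negative ones included the Pfkfb3 peak at 29.4 kb in PL (-1.80 ± 0.21, 1.4e-12), where PL held 28.0 and 27.1 CPM, within the range of the P and L libraries. They also included the Hk2 peak at 21.2 kb in ZS (-1.30 ± 0.19, 4.5e-08) and the Ldha peak at -13.4 kb in ScG (-2.43 ± 0.53, 0.00027).

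Adding the last ligand of a triplet changed few members. Against their pairs, triplets had 4 members called for PScG against ScG (4.53% of all peaks), 4 for ZScG against ZcG (2.79%), and 1 each for PScG against PS (0.602%), PScG against PcG (0.412%) and ZScG against ScG (0.772%). The Hk2 peak at 21.2 kb was the one that rose from PcG to PScG, by 0.48 ± 0.12 (edgeR adjusted p = 0.033). From ZcG to ZScG the start-site peaks of Hk2 (-0.38 ± 0.10, 0.019) and Pfkfb3 (-0.50 ± 0.13, 0.016) fell. PLH against PL (0.000837%), PH (0.248%) and LH (0.546%) and ZScG against ZS (0.0586%) had no member called by edgeR. At an unadjusted p under 0.05 they had 8, 7, 11 and 7 members, and DESeq2's Wald test called 1 for PLH against PH and 0 in the others.

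A list of 30 other genes of glycolysis and its control had 222 tested peaks, of which 126 (56.8%) differed over the 18 groups, against 62.5% of all tested peaks. The 4 genes of glucose uptake and trapping had 213 of 782 peak values against control called higher and 32 lower. Glycolytic enzymes had 67 higher and 131 lower of 1292, regulators of flux 17 and 118 of 578, genes of lactate and pyruvate handling 11 and 70 of 204, and the HIF pathway 48 and 135 of 918. Over all tested peaks 13% of such values were called higher and 12.3% lower.

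The 5 genes of that list with the lowest p were Hk3 and Hk1, which encode further hexokinases, Ldhb, the lactate dehydrogenase subunit that favours pyruvate, Fbp1, which encodes the gluconeogenic fructose bisphosphatase, and Pfkp, a phosphofructokinase gene. The Hk3 peak rose from 2.62 and 4.63 CPM in control to 17.2 and 20.9 in L (2.38, edgeR adjusted p = 5.3e-18) and was at 2.98 and 1.37 in P (-0.77, 0.056). The Hk1 peak rose from 7.65 and 7.53 CPM to 20.7 and 22.7 in S (1.52, 2.2e-13) and was at 10.1 and 10.7 in L (0.46, 0.060). The Pfkp peak rose from 4.70 and 6.27 CPM to 18.3 and 16.2 in P (1.64, 4.1e-10) and was at 3.40 and 4.43 in S (-0.49, 0.14). The Ldhb peak fell from 15.5 and 18 CPM to 4.32 and 5.11 in S (-1.83, 1.1e-13), and the Fbp1 peak from 22.1 and 18.2 to 7.00 and 9.16 (-1.31, 3.5e-10).

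Outside the 7 loci, the tested peak with the group means most like those of the Pfkfb3 peak at 29.4 kb lay in Clec16a (Pearson r = 0.978 over 18 groups of log2 CPM), followed by one near Pacsin3 (0.966) and one in Tmigd1 (0.959). For the Pfkfb3 peak at 57.0 kb the closest were intergenic, nearest to Mt4 (0.899), Spred1 (0.892) and Tex35 (0.891). These values describe the search over all tested peaks and carry no test.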

How the data were processed

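ATAC-seq measured chromatin accessibility in 36 libraries of mouse bone marrow-derived dendritic cells, 18 groups of 2, with groups and replicate numbers taken from the sample titles. The deposited values are unnormalized read counts over a common set of 119751 peaks, 1 column a library. Bowtie2 2.2.9, MACS2 (listed with version 1.4), bedtools, featureCounts and the mm10 build are named in the submitters' processing notes, without parameters. The treatment of duplicate reads, the adjustment of read ends for the transposase and any pooling for peak calling are not given in the sources used here. The reads carry no molecular identifiers, so the precision that depth gives covers counting error only.

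Sample titles gave the match for all 36 columns (0 unused). The single peak spanning the mitochondrial genome was left out, and filterByExpr (minimum count 10) removed a further 286 peaks, leaving 119464. TMM set the scaling, and the fit was made in edgeR 4.0.16 (R 4.3.3) by the quasi-likelihood method with a trended dispersion and robust shrinkage, all libraries in one fit with 18 residual degrees of freedom. Benjamini-Hochberg adjustment ran over all tested peaks within each of 50 contrasts, and called means an adjusted p under 0.05. CPM are counts scaled to the library's total outside the mitochondrial genome and by the TMM factors. The fit was run on simulated counts with changes put into P alone. These held no shift in scaling or mitochondrial share, so that run cannot speak to either.

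Member genes and their ends were taken from a RefSeq gene table of GRCm38.p6, the assembly behind mm10, and start sites and promoters from a RefSeq promoter table of the same build. Exons were not used here. Peaks given with values follow a rule: each gene's start-site peaks and its 2 peaks with the lowest p of the test over all 18 groups. Peaks named outside the rule are marked as such. The member genes, gene lists and rule were chosen with earlier results of these data known. Alternatives were DESeq2 1.42.0 size factors and its Wald test, total counts, offsets that depend on abundance, no filter, the mitochondrial peak kept in library sizes, a replicate block, and each library left out in turn.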

Additional observations from a re-analysis of the deposited data

Results flagged for a closer look

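The effect of a ligand depended on the presence of a second ligand at some member peaks in each of the 8 pairs, by edgeR's quasi-likelihood test of the interaction itself with Benjamini-Hochberg adjustment over all tested peaks. Members called numbered 10 in ScG, 6 in ZcG and 4 in ZS. With P they numbered 4 in PL, 4 in PS, 3 in PcG and 1 in PH, and LH had 3. Over the 8 pairs this was 4.65% of member values, against 5.18% over all tested peaks. The cause of these differences was not tested, and all 8 tests use the same control libraries.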

How the results depend on the processing

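Alternatives were other scalings, no filter, DESeq2's Wald test, the replicate block and each library left out in turn. Of 340 log2 values of named peaks, recomputed to 3740 values, 3430 kept their side of the threshold, 190 were no longer called and 101 became called. The other 19 reversed, that is, changed sign while called before or after. Values called neither before nor after count among the 3430 whatever their sign. Scaling by total counts moved the median of all peaks by up to 0.45 (log2) and gave counts of 46 members for L, 29 for P, 33 for cG, 22 over the triplets and 116 over the interactions, of which ScG had 42, PL 20, ZcG 18, LH 10, PS 9, PcG 6 and PH 5. Offsets that depend on abundance gave 2 for the PH interaction and DESeq2's Wald test gave 3 for ZcG. The cause was not tested. With total counts, 76.3% of called values over all tested peaks were higher, against 51.4% in the main fit. The share of all peaks called in each comparison under these alternatives is not given, so the counts describe no trait of the members.

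All 19 reversals came with total counts. The values were, for Slc2a1, 0.37 in L, 0.32 in PS, 0.40 in PcG and 0.35 in S at the start site and 0.40 in L at 16.9 kb. For Hk2 they were 0.051 in L at 10.2 kb and 0.37 in PcG at the start site, and for the Pkm start site 0.12 in PcG and 0.011 in S. For the Hif1a start site they were 0.089 in L, 0.052 in PLH, 0.36 in PS and 0.36 in S. For Pfkfb3 they were 0.32 in L, 0.033 in PH and 0.32 in S at the second start site, and 0.039 in L, 0.0013 in P and 0.019 in S at the upstream one.

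With 1 library left out, counts against control ranged from 4 to 11 in H, 11 to 16 in L, 15 to 18 in LH, 9 to 15 in P, 19 to 24 in PH, 21 to 24 in PLH, 3 to 9 in Z, 13 to 21 in ZS, 13 to 25 in ZScG, 8 to 13 in ZcG and 10 to 16 in cG. Triplets ranged from 7 to 11, and interactions from 1 to 4 in LH, 1 to 2 in PL, 1 to 2 in PcG, 2 to 3 in ZS and 2 to 6 in ZcG. A lone library is there assumed to vary like the other groups. These ranges are given without the share of all tested peaks, so they describe no trait of the members either.

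With the replicate block no count moved by over 1.5 times and 1 named call changed, that of Hk2 at 21.2 kb in H (0.39, then called). Same-numbered libraries did not deviate together over all tested peaks (r from -0.040 to 0.030 over 153 pairs of groups). Counting error lowers such correlations, so they cannot tell whether these libraries share a mouse, culture or batch. DESeq2's Wald test was not run for the tests over many groups at once. Counts of 0 to 15 in control limit the precision at the weakest peaks.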
